A study of Mus musculus with 6 samples.

Results

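Glycolysis carries glucose to pyruvate and lactate, and glycogen is the glucose store of working muscle. The 36 genes described here encode the enzymes from hexokinase to lactate dehydrogenase with the lactate transporters and a glycerol phosphate branch (21 genes), the enzymes that set fructose bisphosphate levels around phosphofructokinase (5 genes), and the enzymes and regulators of glycogen synthesis and breakdown (10 genes). They were chosen by gene symbol, as genes of these pathways, from the 43346 genes of the deposited table, and each symbol matched 1 row. All 36 passed the filter on low counts and stand among the 15583 genes tested.

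RNA was sequenced from gastrocnemius, a mixed hindlimb muscle, of male mice aged 6 months of the line Vdrfl/fl.actin iCre, whose vitamin D receptor gene, Vdr, has loxP sites on both sides of exon 3. Their Cre recombinase is fused to a mutated estrogen receptor, is driven by the human skeletal actin promoter and needs tamoxifen to act, so that deletion is directed to muscle fibres and not to the other cells of the tissue. The knockout group was 3 samples from animals given tamoxifen at 100 mg/kg in corn oil with 10% ethanol for 5 days, and the control group was 3 samples from animals of the same genotype given the oil and ethanol alone. Both groups received injections of 75 microliters and ate a diet with 3.4 IU/g of vitamin D3 and 0.81% calcium. Both also carried the loxP sites and the Cre, and only the knockout group received the drug. Mice given tamoxifen without Cre are mentioned in the protocol and were not analysed here, so deletion of Vdr and exposure to tamoxifen cannot be told apart. Glucose tolerance and strength were tested 10 days after the injections, and the tissue was taken after these tests. Each library has a number of its own in the labels, which do not state that each is a separate animal, so the p-values measure the spread between these samples.

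The libraries held 30486874 to 39909535 counted reads, with the fewest in knockout replicate 2. The 10 genes with most reads took 15.1% of that library, against 20.8% to 25.2% of the others. Its quality weight from limma-voom was the lowest, 0.423 against 0.702 to 1.776. Vdr gave 52, 27 and 40 reads in knockout replicates 1, 2 and 3 and 46, 48 and 61 in vehicle replicates 1, 2 and 3 (log2 fold change -0.37, SE 0.37, edgeR adjusted p = 0.848), so its gene-level count, which includes exons outside the floxed one, does not separate the groups. The skeletal muscle genes Acta1, Ckm, Myh4 and Mylpf were abundant in every library. Knockout replicate 2 had the highest mean of slow-twitch fibre markers and the lowest mean of fast-twitch markers. Its 15 slow-twitch fibre markers averaged 2.16 log2 units above, and its 16 fast-twitch markers 0.95 below, their means over the 6 libraries, with 6714.6 CPM of the slow myosin light chain Myl2 against 230 to 1561.5 in the others. Of the slow-twitch markers 15 of 15, and of the fast-twitch markers 2 of 16, had higher estimates in knockout. None was at 0 in all libraries, and their summed levels ran from 7023.0 to 35080.3 CPM in knockout and 1600.2 to 11338.7 in vehicle libraries for the slow list, and from 111161.8 to 268699.5 and 222049.5 to 260168.9 CPM for the fast list.

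In muscle, fast-twitch fibres are the main users of glycolysis and express its enzymes at very high levels, often from muscle-specific genes such as Pfkm, Pgam2 and Eno3. Slow-twitch fibres depend more on oxidation and take up and burn lactate. Glycogen breakdown by the phosphorylase Pygm is switched on by phosphorylase kinase, a complex of regulatory subunits (Phka1, Phkb) and a catalytic one (Phkg1), whereas synthesis by Gys1 is favoured by phosphatase subunits that bind glycogen (Ppp1r3a, Ppp1r3c).

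Levels are compared between genes as FPKM, which divides a count by gene length and library total. Along the pathway, on the plot of levels per length, they spanned from 0.139 for Aldoc to 6526.4 for Aldoa. Aldoa, the muscle aldolase, had the highest mean of the 36 and ranked 9 among all genes tested. Eno3, the muscle enolase, followed at 4209.2 and the glycogen phosphorylase Pygm at 2037.4. In all, 8 genes had a mean of at least 1000 FPKM, the others being Pgam2, Gapdh, Pkm, Pfkm and Tpi1. At the other end 6 genes were under 5 FPKM: the second hexokinase Hk1, the phosphofructokinases Pfkl and Pfkp of other tissues, the brain aldolase Aldoc, the widely expressed mutase Pgam1 and the kinase-phosphatase Pfkfb2.

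**Figure D1:**
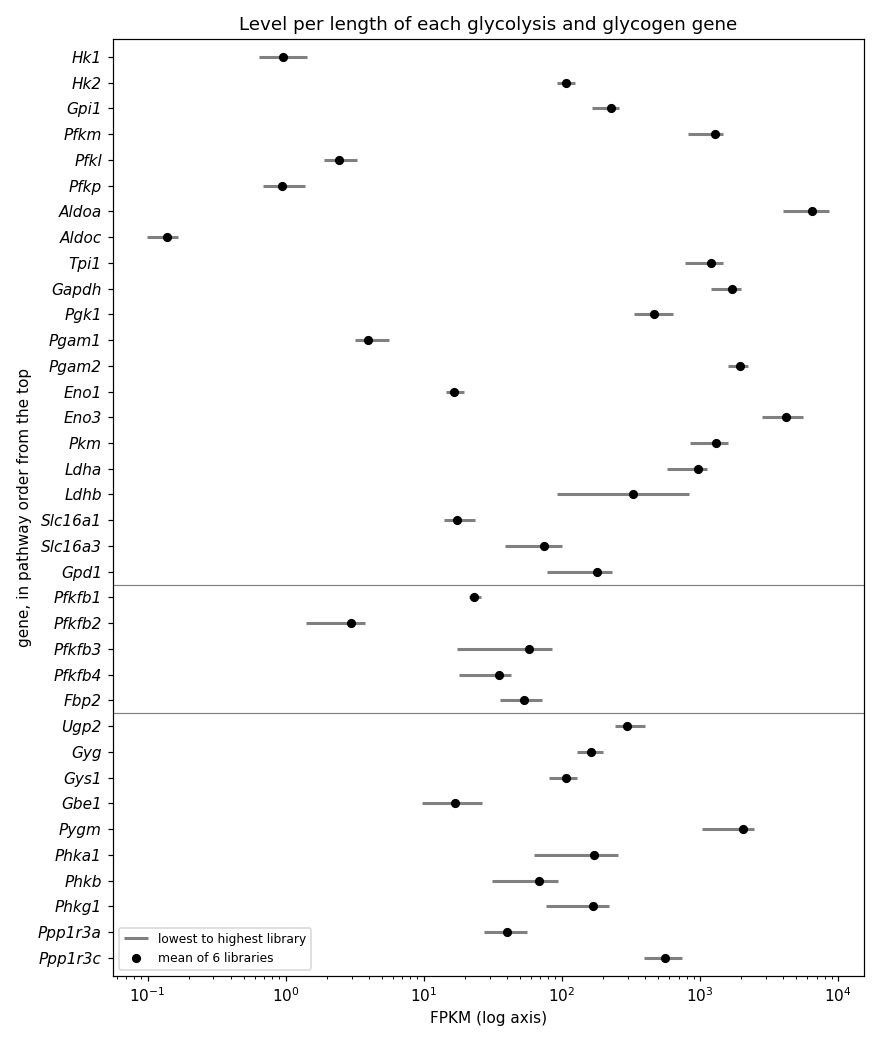
Mean FPKM over the 6 libraries (points) with the lowest and highest library (grey bars) for each of the 36 genes, on a log axis, in pathway order from hexokinase at the top to the glycogen-binding phosphatase subunits. Aldoa at 6526.4 and Eno3 at 4209.2 are the highest and Aldoc at 0.139 the lowest.

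The comparison of knockout with vehicle asks whether transcripts of glucose use and storage differ in muscle after the receptor gene is deleted in adult mice. None of the 36 genes passed. With edgeR's quasi-likelihood test 0 of 36 had an adjusted p below 0.05, where 0% of all genes tested did, and the lowest adjusted p among them was 0.651, for Hk1. DESeq2 called 109 genes and 0 of these 36, and 0 of the 36 were called in any alternative fit. At an unadjusted p below 0.05 there was 1 of the 36 (Hk1, higher), against 7.44% of all genes tested. The same gene was the only one of the 36 whose groups did not overlap, against 12.3% of all genes tested. Estimates were lower in knockout for 21 and higher for 15, with a median log2 fold change of -0.16, beside 0.02 over all genes tested. For 19 of the 36 the 95% interval of the fold change lay within a 2-fold change in either direction. For the other 17, Ldhb and Phka1 among them, a difference beyond 2-fold was within the interval, so these libraries do not show that the groups were alike.

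**Figure D2:**
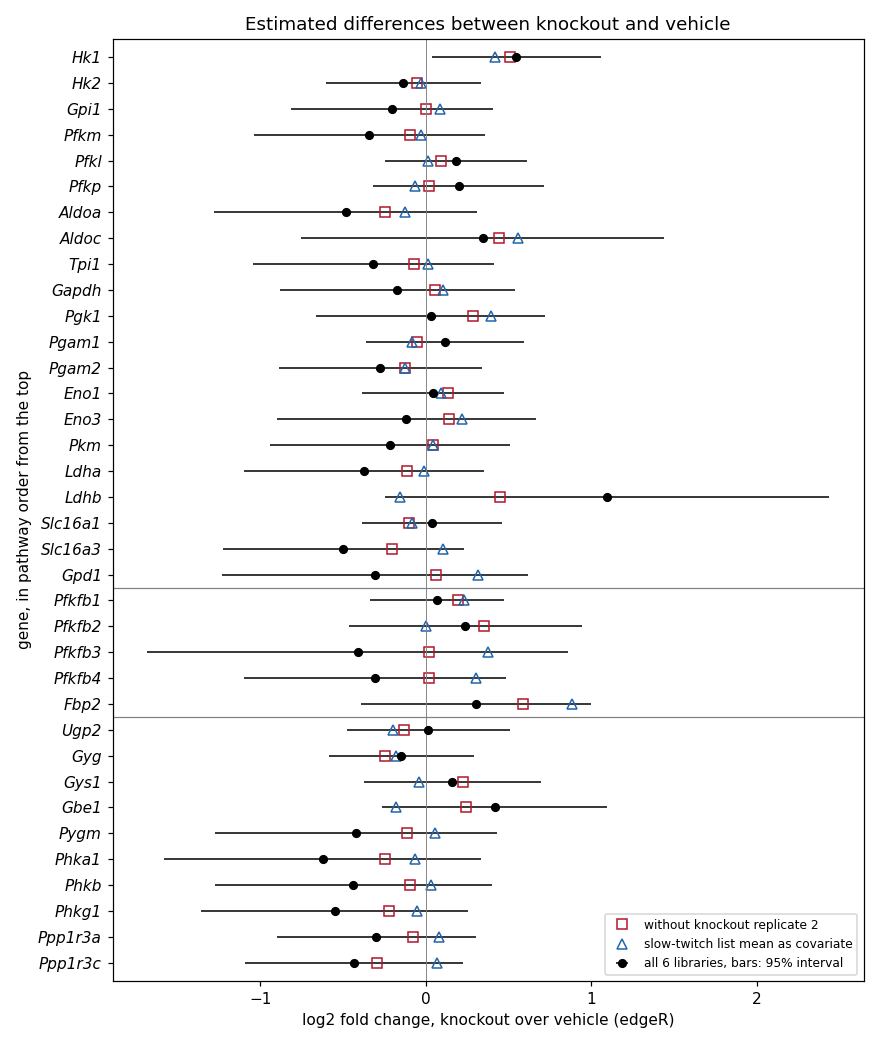
Log2 fold change of knockout over vehicle for the 36 genes, with the 95% interval (black), the estimate without knockout replicate 2 (red squares) and the estimate from a fit with the slow-twitch marker mean added as covariate (blue triangles). The interval excludes 0 for Hk1 alone, and most red squares and blue triangles lie nearer to 0 than the black points, Fbp2 being among the exceptions at 0.59 and 0.89.

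Glucose is trapped in the fibre by hexokinase. Hk2, the insulin-responsive isozyme of muscle, was at 607, 537 and 689 CPM in knockout replicates 1, 2 and 3 and at 644, 754 and 617 CPM in vehicle replicates 1, 2 and 3. The groups overlapped, and the log2 fold change was -0.14 (SE 0.21, edgeR adjusted p = 0.906). Hk1, the isozyme of most other tissues, was at 7.39, 10.1 and 11.4 CPM in knockout and 6.75, 7.34 and 5.66 CPM in vehicle libraries. All 3 knockout libraries lay above all 3 vehicle libraries, but the lowest knockout value, 7.39, only just exceeded the highest vehicle value, 7.34. Its means were 9.61 ± 2.04 and 6.58 ± 0.854 CPM (SD, n = 3 each), a log2 fold change of 0.55 (SE 0.23, unadjusted p = 0.0384 and edgeR adjusted p = 0.651). Of other cell types, 6 of 8 endothelial and 3 of 6 erythrocyte markers had higher estimates in knockout. Lower ones were found for 5 of 6 smooth muscle markers and for all 6 Schwann and nerve markers tested. Of 12 macrophage markers 11, and of 8 fibroblast markers 8, had higher estimates, where 47.1% of all genes tested had lower ones. At an unadjusted p below 0.05 were 9 macrophage and 2 fibroblast markers, all higher, and 3 smooth muscle markers, all lower. This compares with 7.44% of all genes, and 0 of these markers passed after adjustment. The groups did not overlap for 3 smooth muscle and 0 macrophage or fibroblast markers, against 12.3% of all genes. The mean of the macrophage markers, relative to the 6 libraries, was -0.58, 0.95 and 1.04 in knockout and -0.05, -0.31 and -1.04 in vehicle libraries, and that of the fibroblast markers was -0.54, 1.00 and 0.60 and -0.15, -0.14 and -0.78. No marker of either list was at 0 in all libraries, and summed levels ran from 53.7 to 167 CPM in knockout and 41.8 to 75.9 in vehicle libraries for macrophages, and from 547 to 1527.3 and 575 to 793 CPM for fibroblasts. The part of any of these cell types in the Hk1 values was not tested, and in bulk tissue more cells of a type and more RNA per cell cannot be told apart. Hk1 lies on chromosome 10 from 62268855 to 62379908 (mm10).

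Gpi1 converts glucose 6-phosphate to fructose 6-phosphate, and phosphofructokinase commits it to glycolysis. Gpi1 was at 1288.3, 661 and 917 CPM in knockout and 1057.8, 1050.9 and 1195.6 CPM in vehicle libraries, so that knockout held both the highest and the lowest library. Pfkm, the muscle phosphofructokinase (chromosome 15, 98092589 to 98132447), was at 4595.9, 2133.2 and 3467.1 CPM in knockout and 4152.6, 4470.6 and 4289.6 CPM in vehicle libraries. The 3 vehicle values lay close together and the knockout values on both sides of them. Fold changes were -0.20 (SE 0.27) for Gpi1 and -0.34 (SE 0.31) for Pfkm, on the log2 scale. Pfkl and Pfkp, at 0.18 and 0.20, were at 6.76 to 12.7 CPM over the 6 libraries and did not pass either. Pitrm1, which overlaps Pfkp, held reads equal to 682% of those of Pfkp.

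Below phosphofructokinase the 6-carbon sugar is split and oxidised. Aldoa (chromosome 7, 126795234 to 126800751) was at 21509.2, 9785.7 and 14422.6 CPM in knockout and 19871.3, 19217.7 and 24846.2 CPM in vehicle libraries. Knockout replicates 2 and 3 were below all vehicle libraries and knockout replicate 1 within their range, and the log2 fold change of -0.48 (SE 0.35, edgeR adjusted p = 0.785) was -0.25 without knockout replicate 2. Gapdh, the dehydrogenase often used as a reference transcript, was at 9039.3, 4421.2 and 6672.2 CPM in knockout and 7498.0, 6813.9 and 8346.5 CPM in vehicle libraries. Its highest knockout library was 2.05-fold its lowest, against 1.23-fold among vehicle libraries. Tpi1 was at -0.32 on the log2 scale, Pgk1 at 0.03 and the scarce Aldoc at 0.34, with adjusted p values from 0.850 to 0.989 in edgeR.

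Pgam2, Eno3 and Pkm carry phosphoglycerate to pyruvate. Eno3 (chromosome 11, 70657202 to 70662513) was at 10589.3, 4303.0 and 6519.3 CPM in knockout and 7540.8, 7378.1 and 8312.8 CPM in vehicle libraries. Knockout replicate 1 was the highest of the 6 and knockout replicate 2 the lowest, and the log2 fold change was -0.12 (SE 0.35). Pgam2 at -0.27 and Pkm at -0.22 had the same order at both ends, while Eno1 and Pgam1, the forms of other tissues, were at 0.04 and 0.12. Pkm reads cannot be divided between its splice forms in a gene-level table. Pgam1 was nearly even among vehicle libraries, at 6.78 to 6.94 CPM, but 2 named pseudogenes of it held reads equal to 14.3% and 2.56% of its own, so its level is uncertain.

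Of the 8 isozyme families, lactate dehydrogenase had the widest difference in shares between the groups, 19.3 points, which was 6.84 points without knockout replicate 2 and 28.3 without knockout replicate 1. Ldha, whose subunit prevails in fast fibres, was at 3605.1, 1528.1 and 2499.4 CPM in knockout and 3094.8, 3294.2 and 3495.1 CPM in vehicle libraries. Ldhb, whose subunit prevails in heart and slow fibres, was at 368, 1164.3 and 495 CPM in knockout and 576, 149 and 223 CPM in vehicle libraries. Knockout replicate 2 thus had the least Ldha and the most Ldhb, and vehicle replicate 1 ranked second in Ldhb, above knockout replicates 1 and 3. The log2 fold change was -0.37 (SE 0.32, edgeR adjusted p = 0.817) for Ldha and 1.10 (SE 0.58, 95% interval -0.24 to 2.44, edgeR adjusted p = 0.714) for Ldhb. Without knockout replicate 2 the Ldhb estimate was 0.45, and without vehicle replicate 1 it was 1.86. Ldha lies on chromosome 7 from 46841475 to 46855627 and Ldhb on chromosome 6 from 142490249 to 142507957.

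As a share of the summed FPKM of Ldha and Ldhb, a measure that does not move with library scaling, Ldhb made up 16.2%, 59.1% and 27.3% in knockout and 26.1%, 7.91% and 10.8% in vehicle libraries. The means were 34.2% ± 22.3 and 14.9% ± 9.77 (SD, n = 3 each), and the groups overlapped (exact permutation test, two-sided, p = 0.2, where 3 against 3 cannot go below 0.1; adjusted p = 0.457 over 8 isozyme families). Ordered by this share, the libraries ran from knockout replicate 2 through knockout replicate 3, vehicle replicate 1, knockout replicate 1 and vehicle replicate 3 to vehicle replicate 2. The mean of the slow-twitch markers was 2.16, 0.60, 0.73, 0.04, -1.87 and -1.65 in those same libraries. The muscle isozymes otherwise dominated their families in every library, with Hk2, Pfkm, Aldoa, Pgam2 and Eno3 each above 98% of the family's FPKM. The Hk2 share did not overlap, at 99.16%, 98.71% and 98.86% in knockout and 99.27%, 99.32% and 99.36% in vehicle libraries. That difference of -0.413 points had p = 0.1 in the exact permutation test, the lowest possible, and adjusted p = 0.4. Aldoa had the same p values at a difference of -0.00143 points, beside the scarce Aldoc.

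**Figure D3:**
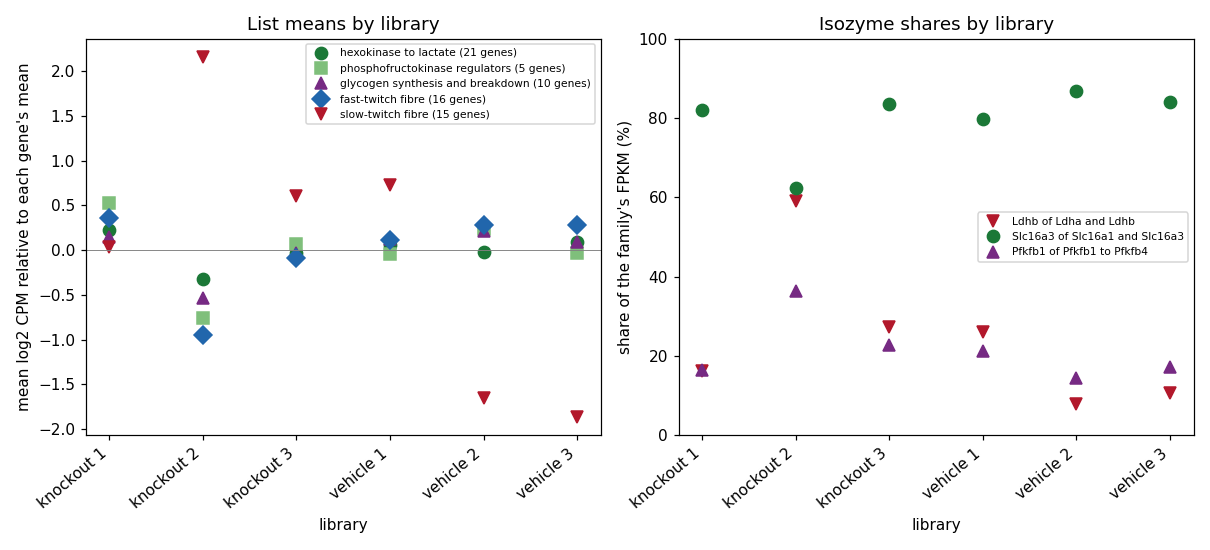
Left, mean log2 CPM of the 3 groups of glycolysis and glycogen genes and of fast- and slow-twitch markers in each library, relative to each gene's mean over the 6 libraries. Right, share of the family's FPKM taken by Ldhb, Slc16a3 and Pfkfb1 in each library; knockout replicate 2 has the highest slow-twitch mean (2.16) and the highest Ldhb share (59.1%).

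The promoters of this isozyme pair are shown because their transcripts went to opposite ends of the range in knockout replicate 2, and those of Pygm and Fbp2 because these mark the glycogen and fructose bisphosphatase genes described next. Each is the 250 bases before a transcription start in RefSeq (GRCm38.p6), read along the gene's strand. Capitals mark ACGTG, the core of the hypoxia response element, CACGTG, an E-box that contains it and is also read by carbohydrate response factors, CAGCTG, the E-box favoured by myogenic factors, and AGGTCA, a nuclear receptor half-site, each on either strand. Ldha has a further start in RefSeq whose window held none of the 4. Bases just after that further start were found in a GENCODE transcript of the gene, but those after the Ldha start shown were not. The bases after the start are not shown.
Ldha, chr7:46845554-46845803, plus strand: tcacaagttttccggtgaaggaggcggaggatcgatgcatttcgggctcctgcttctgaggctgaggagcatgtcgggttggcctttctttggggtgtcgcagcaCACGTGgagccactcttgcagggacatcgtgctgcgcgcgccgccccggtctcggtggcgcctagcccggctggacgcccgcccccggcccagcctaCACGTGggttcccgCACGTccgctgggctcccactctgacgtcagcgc
Ldhb, chr6:142507958-142508207, minus strand: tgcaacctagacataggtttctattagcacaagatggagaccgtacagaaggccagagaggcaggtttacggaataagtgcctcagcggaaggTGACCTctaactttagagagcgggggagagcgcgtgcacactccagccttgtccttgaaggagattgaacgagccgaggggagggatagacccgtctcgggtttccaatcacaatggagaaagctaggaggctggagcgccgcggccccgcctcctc
Pygm, chr19:6384158-6384407, plus strand: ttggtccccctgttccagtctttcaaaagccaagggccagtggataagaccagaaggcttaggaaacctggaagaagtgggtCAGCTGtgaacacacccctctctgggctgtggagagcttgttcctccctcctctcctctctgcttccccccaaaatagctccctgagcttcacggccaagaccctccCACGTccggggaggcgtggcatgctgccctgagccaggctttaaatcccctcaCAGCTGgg
Fbp2, chr13:62858401-62858650, minus strand: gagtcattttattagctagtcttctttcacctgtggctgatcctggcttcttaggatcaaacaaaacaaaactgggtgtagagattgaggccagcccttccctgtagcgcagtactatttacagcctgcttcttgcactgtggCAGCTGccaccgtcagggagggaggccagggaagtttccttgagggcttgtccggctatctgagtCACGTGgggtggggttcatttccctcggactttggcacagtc

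RefSeq windows matched 35 of the 36 genes, 53 windows in all. ACGTG was found in 19 of the 53 windows, of 15 genes, and in 16.6% of all 32851 windows of the same length. CACGTG was in 7 windows (Ldha, Pfkm, Slc16a1, Pfkfb2, Pfkfb3, Fbp2 and Ppp1r3c) and in 6.02% of all, and CAGCTG in 12 windows and 13.0% of all. The single half-site AGGTCA was in 8 windows, against 14.0% of all. A direct repeat spaced by 3 bases, with each copy read as AGGTCA, or else as AGTTCA, or else as GGTTCA, or else as GGGTCA, the arrangement bound by the vitamin D receptor with its retinoid partner, was in 0 of the 53 windows and 0.0396% of all. These are matches of letters in 250 bases and do not show a bound site or its absence.

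Lactate leaves fast fibres through Slc16a3 and enters oxidative fibres through Slc16a1. Slc16a3 (chromosome 11, 120948480 to 120960868) was at 395, 182 and 422 CPM in knockout and 355, 503 and 553 CPM in vehicle libraries. Vehicle replicate 1 lay within the knockout range and vehicle replicates 2 and 3 above it, and the log2 fold change was -0.50 (SE 0.32, edgeR adjusted p = 0.753). Slc16a1 was at 0.04 (SE 0.19). Slc16a3 took 82.1%, 62.3% and 83.7% of the summed FPKM of both transporters in knockout and 79.8%, 86.9% and 84.0% in vehicle libraries, so that knockout replicate 2 alone was outside the vehicle range. Gpd1, which turns a glycolytic intermediate into glycerol phosphate and is also high in fat cells, was at 756, 203 and 506 CPM in knockout and 488, 632 and 694 CPM in vehicle libraries. Its log2 fold change was -0.31 (SE 0.41), and 0.06 without knockout replicate 2. Of 10 adipocyte markers 10 had higher estimates in knockout, beside 47.1% of all genes tested with lower ones. At an unadjusted p below 0.05 were 7 of the 10, against 7.44% of all genes, and 0 passed after adjustment. None of the markers was at 0 in all libraries, and their summed levels were 2176.2 to 3327.2 CPM in knockout and 1303.2 to 2112.4 in vehicle libraries. Their mean was 0.64, 1.15 and -0.20 in knockout and -0.08, -0.36 and -1.14 in vehicle libraries. The part of fat cells in the Gpd1 values was not tested.

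The PFKFB enzymes make and remove fructose 2,6-bisphosphate, the strongest activator of phosphofructokinase, and Fbp2 is the muscle fructose bisphosphatase that runs the opposite reaction. Pfkfb3 (chromosome 2, 11471433 to 11554077) was at 702, 117 and 333 CPM in knockout and 372, 632 and 529 CPM in vehicle libraries. Knockout replicate 1 had 6.02-fold the level of knockout replicate 2, the widest range within a group of any of the 36 genes. Pfkfb4 was at 157, 52.5 and 111 CPM in knockout and 104, 144 and 149 CPM in vehicle libraries, with the same library at each end. The log2 fold changes, -0.41 (SE 0.55) and -0.31 (SE 0.35), were both 0.02 without knockout replicate 2. Pfkfb2, at 26.9, 19.8 and 24.0 CPM in knockout and 28.3, 20.9 and 10.7 in vehicle libraries, was at 0.24 (SE 0.31), and overlapping gene models held reads equal to 37.8% and 25.6% of its own. Pfkfb1, the form of muscle and liver, had the smallest SE of the 4, with an estimate of 0.07 (SE 0.18).

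Fbp2 (chromosome 13, 62836884 to 62858400) was at 104, 44.1 and 87.8 CPM in knockout and 49.0, 79.2 and 63.4 CPM in vehicle libraries. Knockout replicates 1 and 3 were above all vehicle libraries and knockout replicate 2 below them all. The log2 fold change was 0.30 (SE 0.31, edgeR adjusted p = 0.849). Without knockout replicate 2 it was 0.59 (SE 0.21, unadjusted p = 0.0186, edgeR adjusted p = 0.970), the only one of the 36 with an unadjusted p below 0.05 in that fit, in which 4.63% of all genes were. In the fit with the slow-twitch mean added it was 0.89 (SE 0.26, unadjusted p = 0.00843 and edgeR adjusted p = 1.00), again the only one of the 36, beside 1.84% of all genes. Neither fit called Fbp2 after adjustment.

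Glycogen synthesis starts from UDP-glucose, made by Ugp2, which the primer protein Gyg, the synthase Gys1 and the branching enzyme Gbe1 build into the polymer. Ugp2 (chromosome 11, 21321138 to 21371201) was at 815, 1082.5 and 823 CPM in knockout and 950, 905 and 835 CPM in vehicle libraries, with a log2 fold change of 0.02 (SE 0.22). Here knockout replicate 2 was the highest library. Gbe1 was at 87.7, 124 and 92.3 CPM in knockout and 117, 53.0 and 57.9 CPM in vehicle libraries. Its estimate was 0.42 (SE 0.30, edgeR adjusted p = 0.785), and vehicle replicate 1 lay among the knockout libraries. Without that library it was 0.87 (SE 0.22, unadjusted p = 0.00384 and edgeR adjusted p = 0.255), one of 2 genes of the 36, with Ldhb, at an unadjusted p below 0.05 in that fit, against 9.31% of all genes. Gyg and Gys1 were at -0.15 and 0.16.

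All 4 genes of glycogen breakdown had lower estimates, and 0 of the 4 passed. Pygm (chromosome 19, 6384399 to 6398459) was at 8620.2, 2943.3 and 5563.7 CPM in knockout and 6761.6, 8149.3 and 8056.1 CPM in vehicle libraries, and its log2 fold change was -0.42 (SE 0.38). Phka1 was at 1339.9, 346 and 920 CPM in knockout and 1148.8, 1633.3 and 1230.0 CPM in vehicle libraries, and its log2 fold change was -0.62 (SE 0.42, edgeR adjusted p = 0.769), the lowest estimate of the 36. Knockout replicate 1 lay within the vehicle range for Phka1 and above it for Pygm, and knockout replicates 2 and 3 lay below it for both. Phkg1 was at 683, 220.4 and 448 CPM in knockout and 579, 719 and 681 CPM in vehicle libraries, at -0.55 (SE 0.36, edgeR adjusted p = 0.753), and Phkb was at -0.44 (SE 0.37). The 3 kinase subunits thus shared their lowest library, with 3.10- to 3.87-fold between the extremes of the knockout group. Phkg1 overlaps other gene models, 1 of which held reads equal to 35.3% of its own. Without knockout replicate 2 the 4 estimates were -0.11, -0.24, -0.10 and -0.22 for Pygm, Phka1, Phkb and Phkg1.

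The phosphatase subunit Ppp1r3c (chromosome 19, 36731737 to 36736653), which brings the phosphatase to glycogen, was at 1182.9, 1021.4 and 1669.3 CPM in knockout and 1222.8, 1919.8 and 2097.5 CPM in vehicle libraries. Vehicle replicate 1 sat between knockout replicates 1 and 3, and the log2 fold change was -0.44 (SE 0.29, edgeR adjusted p = 0.767). Ppp1r3a, the subunit of striated muscle, was at -0.30 (SE 0.27).

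**Figure D4:**
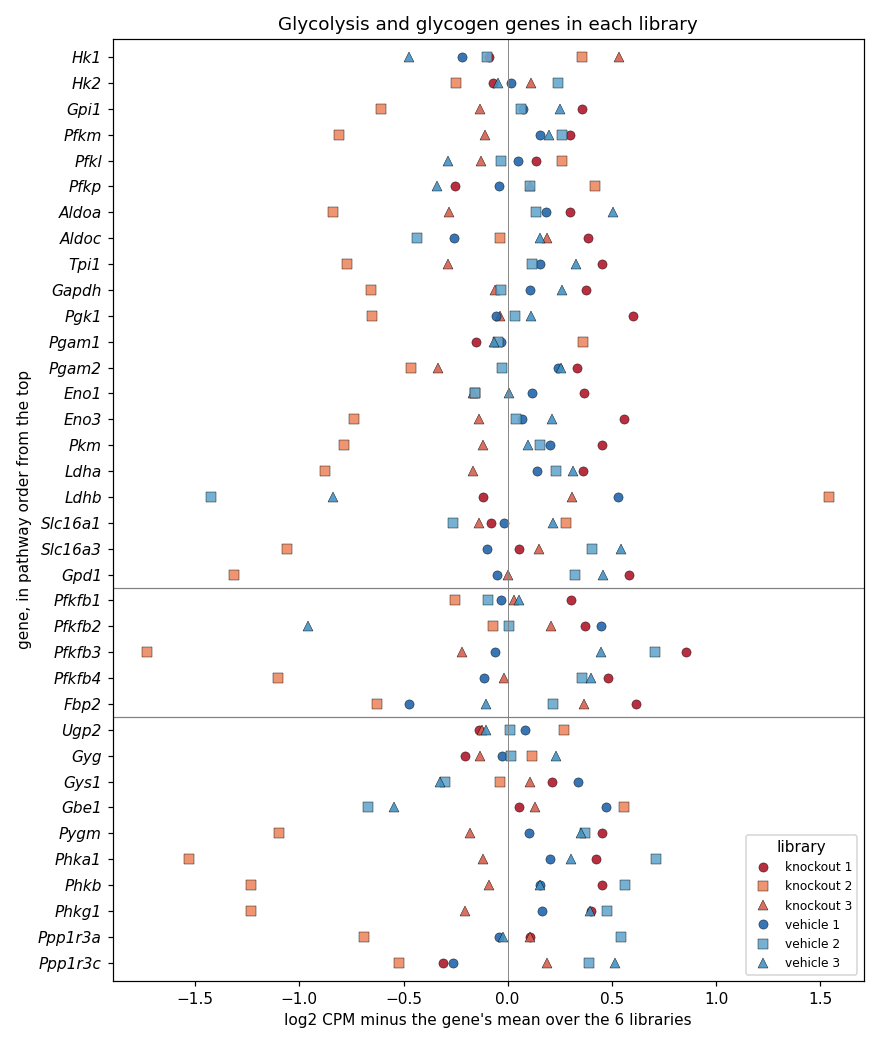
Log2 CPM of each of the 36 genes in each of the 6 libraries, relative to the gene's mean over the libraries (reds and orange, knockout, and blues, vehicle, with replicates 1, 2 and 3 as circles, squares and triangles). Knockout replicate 2 is the lowest library for 23 of the 36 genes and knockout replicate 1 the highest for 17, against 26.9% and 12.2% of all genes tested. Ldhb has knockout replicate 2 as its highest.

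Across the 36 genes the knockout libraries were spread more widely than the vehicle libraries, by the ratio of highest to lowest library. This held for 29 of 36 genes (80.6%), against 58.3% of all genes with reads in every library. Knockout replicate 2 was the lowest library for 23 of the 36 genes (63.9%), where it was the lowest for 26.9% of all genes tested. It was lowest for 16 of the 20 genes with a mean of at least 100 FPKM and for 7 of the other 16. No such share was counted for genes of like level outside the 36. Knockout replicate 1 was the highest for 17 of the 36, where it was the highest for 12.2% of all genes tested. For 15 genes knockout replicate 1 was the highest and knockout replicate 2 the lowest, a pattern not counted over all genes. The median ratio of highest to lowest library was 2.00 in the knockout group and 1.28 in the vehicle group, beside 1.51 and 1.42 over all genes with reads in every library. The genes took 7.33%, 4.28% and 5.97% of all reads in knockout and 6.59%, 6.85% and 7.51% in vehicle libraries. The fast-twitch marker mean was 0.36, -0.95 and -0.09 in knockout and 0.11, 0.29 and 0.28 in vehicle libraries, beside 0.25, -0.44 and -0.02 and 0.06, 0.08 and 0.07 for the mean of the 36 genes. The parts of fibre-type content and of library quality in these values were not tested.

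The values moved with the knockout library left out. Without knockout replicate 2 the median log2 fold change of the 36 was 0.01, with 17 lower estimates, and 1 gene was at an unadjusted p below 0.05 (Fbp2). Without knockout replicate 1 the median was -0.40, with 24 lower estimates, and 10 genes were at an unadjusted p below 0.05, against 12.1% of all genes in that fit. Of these, 8 were lower (Aldoa, Tpi1, Ldha, Pfkfb3, Pygm, Phka1, Phkb and Phkg1) and 2 were higher (Hk1 and Ldhb), with adjusted p values from 0.296 to 0.411 in edgeR, so none was called. In the fit with the slow-twitch mean added the median was 0.02 and 16 estimates were lower. In that fit Ldhb was at -0.15, Ldha at -0.01, Slc16a3 at 0.11, Pygm at 0.05 and Phka1 at -0.07. The slow-twitch mean itself was higher in knockout than in vehicle libraries on average, so covariate and group are not independent.

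Of 41 further glycolysis and glycogen genes outside the 36, 35 could be tested, and 0 passed in either direction. At an unadjusted p below 0.05 there were 3 of the 35, against 7.44% of all genes, all lower in knockout. The groups did not overlap for 6 of the 35 (17.1%), 5 lower and 1 higher, against 12.3% of all genes tested. The list's lower estimates, 22 of 35, were 12 in the fit with the slow-twitch mean added. Slc2a3, a high-affinity glucose transporter, was at 13.8, 5.53 and 13.2 CPM in knockout and 19.97, 30.3 and 31.2 CPM in vehicle libraries, without overlap. Its estimate was -1.32 (SE 0.34, edgeR adjusted p = 0.526), and -0.67 (edgeR unadjusted p = 0.0324) with the slow-twitch mean added. Without knockout replicate 2 it was -1.01 (edgeR unadjusted p = 0.001035). In those 2 fits 1.84% and 4.63% of all genes were at an unadjusted p below 0.05. Tigar, a phosphatase that lowers fructose 2,6-bisphosphate, was at 128, 63.3 and 104 CPM in knockout and 140, 183 and 162 CPM in vehicle libraries, also without overlap. Its estimate was -0.71 (SE 0.25, edgeR adjusted p = 0.636), and -0.31 (edgeR unadjusted p = 0.243) with the slow-twitch mean added. Without knockout replicate 2 it was -0.475 (edgeR unadjusted p = 0.0323). The lysosomal glucosidase Gaa was at -0.39 (SE 0.20). Slc2a4, the insulin-regulated glucose transporter, was even across the 6 libraries, from 657 to 721 CPM.

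Among 15 genes of pyruvate entry into mitochondria, 0 passed, 12 had higher estimates and 2 were at an unadjusted p below 0.05 (Pcx and Pdk1), where 47.1% of all genes had lower estimates and 7.44% were at such a p. With the slow-twitch mean added, 8 of the 15 estimates were lower and their median was -0.01, in place of 0.27. The pyruvate carboxylase Pcx was at 206, 76.5 and 151 CPM in knockout and 76.3, 90.5 and 76.6 CPM in vehicle libraries, so that knockout replicates 1 and 3 lay above, and knockout replicate 2 within, the vehicle range (log2 fold change 0.83, SE 0.31, edgeR adjusted p = 0.643). It was 1.14 without knockout replicate 2 (edgeR unadjusted p = 0.000123), a fit with 4.63% of all genes below 0.05. With the slow-twitch mean added Pcx was at 1.225 (SE 0.324, edgeR unadjusted p = 0.00448), so it did not fall with the list median. In that fit 1.84% of all genes were below 0.05 and 0 passed after adjustment. Pdk1, which inhibits pyruvate dehydrogenase, was at 0.64 (SE 0.28), but at 0.39 without knockout replicate 2 and 0.02 with the slow-twitch mean added. The subunit gene Dlat of that complex was at 0.32 (SE 0.19) and the activating phosphatase Pdp1 at -0.29 (SE 0.20). Of 19 regulators of glycolytic genes and energy sensing, 0 passed, 8 estimates were higher and 11 lower, and 2 were at an unadjusted p below 0.05 (Esrra and Prkag3), again beside 7.44% of all genes. With the slow-twitch mean added, 0 of the 19 were at such a p and 6 estimates were lower. The 4 of smallest p were the nuclear receptor Esrra at 0.55 (SE 0.22), Prkag3, the energy-sensing kinase subunit of fast muscle, at -1.20 (SE 0.51), the hypoxia-inducible factor Epas1 at 0.35 (SE 0.18) and Txnip, a glucose-responsive inhibitor of glucose uptake, at -0.51 (SE 0.28). Their edgeR adjusted p values ran from 0.645 to 0.712. With the slow-twitch mean added Esrra was at 0.13 and Prkag3 at -0.41, and without knockout replicate 2 they were at 0.40 and -0.79.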

How the data were processed

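Gene expression was measured by sequencing of polyadenylated RNA (stranded mRNA kit, per the labels' protocols). The authors deposited 1 table with the read count of every gene in each library. The submitters' processing notes name STAR 2.6.1c, featureCounts, Subread 1.5.1 and mm10. The annotation release, strand setting and treatment of multimapping reads are not given here, so values of overlapping genes and close copies are uncertain. The deposited FPKM values equal the count over gene length plus 1 base and library total, with no further scaling.

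The counts entered edgeR 4.0.16 (R 4.3.3): filterByExpr (minimum count 10, minimum total 15), TMM factors (0.912 to 1.13), and a robust quasi-likelihood fit over all 15583 genes kept, two-sided, with Benjamini-Hochberg adjustment and a threshold of 0.05. A positive log2 fold change is higher in knockout. CPM use TMM-scaled totals, and 3 reads correspond to 0.0783 to 0.0929 CPM. List means are averages of log2 CPM (prior count 2) after subtracting each gene's mean. The covariate fit added the slow-twitch list mean to the same model. The procedure was also run on simulated counts, drawn independently for each gene with no library set apart. That run therefore does not bear on libraries that differ in many genes at once. Replicates were numbered in deposit order and pair nothing. 

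The members and lists were chosen with earlier results of these data known. All 36 members are accounted for. Those with a value in every library are, in each of the 3 groups of genes, the one of highest mean FPKM in each step and the 4 of smallest p (3 in the phosphofructokinase regulators), and from each further pathway list the 4 of smallest p are given. Of these, 1 gene is counted but not reported here. Tpi1, Pgk1 and the other members stand as estimates, and Slc2a4 and the order of libraries were described after their values were seen. In the table the symbols Pgm1 and Pgm2 are exchanged relative to current use. Alternatives used DESeq2 1.42.0 and limma 3.58.1.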

Additional observations from a re-analysis of the deposited data

How the results depend on the processing

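No member was called after adjustment in any of the alternative fits, while the number of all genes called was 0 in edgeR, 109 with DESeq2, 29 without the low-count filter, 4 with DESeq2's size factors, 4 with voom quality weights, 24 without knockout replicate 1 and 6 without knockout replicate 2. The members at an unadjusted p below 0.05 numbered 1 in edgeR, 0 with limma on log2(FPKM + 0.1) or log2(FPKM + 1), and from 0 to 10 as each library was left out, with 10 without knockout replicate 1, 2 without vehicle replicate 1, and 0 without knockout replicate 3 or vehicle replicate 3. Of 503 member estimates under the alternatives 42 changed sign, and 12 members had no such change. With the slow-twitch mean as covariate 21 estimates changed sign, to 0.083 for Gpi1, -0.066 for Pfkp, 0.013 for Tpi1, 0.10 for Gapdh, -0.085 for Pgam1, 0.22 for Eno3, 0.042 for Pkm, -0.15 for Ldhb, -0.081 for Slc16a1, 0.11 for Slc16a3, 0.32 for Gpd1, -0.0012 for Pfkfb2, 0.38 for Pfkfb3, 0.31 for Pfkfb4, -0.20 for Ugp2, -0.042 for Gys1, -0.18 for Gbe1, 0.054 for Pygm, 0.031 for Phkb, 0.079 for Ppp1r3a and 0.067 for Ppp1r3c. The cause was not tested. Ugp2 also changed sign with DESeq2's size factors (-0.000294), the DESeq2 Wald test (-0.000295) and voom quality weights (-0.093). As each library was left out, estimates that changed sign ran from -0.49 to 0.0011 for Gpi1, -0.45 to 0.056 for Gapdh, -0.35 to 0.29 for Pgk1, -0.056 to 0.21 for Pgam1, -0.16 to 0.13 for Eno1, -0.52 to 0.14 for Eno3, -0.57 to 0.043 for Pkm, -0.10 to 0.16 for Slc16a1, -0.77 to 0.060 for Gpd1, -0.086 to 0.20 for Pfkfb1, -0.065 to 0.58 for Pfkfb2, -1.19 to 0.018 for Pfkfb3, -0.70 to 0.020 for Pfkfb4 and -0.13 to 0.083 for Ugp2. Shares taken from read counts in place of FPKM gave differences between the groups of -0.585 points for Hk2, -0.270 for Pfkm, -0.155 for Pgam2 and -0.233 for Eno3, since counts are not divided by gene length. No paired analysis was possible because the labels give the groups no shared replicate numbers. With 3 libraries a group and a biological coefficient of variation of 0.27, 19 of the 36 intervals lay within a 2-fold change and the others reached beyond it.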
